A study of Mus musculus with 6 samples.

Results

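Tubulins, kinesins, cytoplasmic dyneins and dynactin form the track and the motors of axonal transport, and their transcripts were followed here in mouse dorsal root ganglia after kidney injury. Every row of the deposited count table with a gene name of the tubulin alpha or beta, kinesin, kinesin light chain, dynein or dynactin series was taken, and pseudogene names were left out. This gave 89 of 57180 genes. One of them, Kif16bos, is an opposite-strand transcript and not a motor, and it had 0 counts in all 6 libraries. The rule itself used names only, but it was set with earlier results of these data known.

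The ganglia lay between thoracic level 8 and lumbar level 2 and were taken 24 h after surgery from 6 wild-type mice. In 3 I/R (ischemia-reperfusion) mice, the left renal pedicle had been clamped for 28 min and released, and the right kidney removed. The 3 sham mice went through the same surgery with no clamp, and each group gave 1 library per mouse. Strain, sex, age and the side of the ganglia are not stated in the labels. Neuronal markers (7 genes, such as Rbfox3 and Uchl1) summed to 5504 to 6726 CPM in I/R and 6088 to 6287 CPM in sham libraries, where CPM is counts per 1e6 counts of the scaled library.

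A microtubule is built from alpha and beta tubulin dimers, and each of the tubulin chains is encoded by several genes, called isotypes. Kinesins mostly walk outward along axonal microtubules with vesicles, organelles and neurofilaments. Cytoplasmic dynein, with its cofactor dynactin, carries endosomes and injury signals back to the cell body. Sensory neurons depend on both directions because their axons run from the ganglion to distant organs, and regrowing axons need new tubulin.

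Libraries held 20234079 to 22010227 counts in I/R and 19092650 to 20390927 in sham. The 89 genes took 3.50%, 3.55% and 3.51% of all counts in I/R 1 to 3, against 3.41%, 3.44% and 3.23% in sham 1 to 3. By this share the I/R libraries lay above the sham libraries. With counts divided by gene model length and scaled to 1e6 per library, the groups overlapped. These sums were 32113, 33751 and 34406 in I/R 1 to 3, against 32023, 32544 and 29188 in sham 1 to 3. Of the 89 genes, 75 passed the filter on low counts and were tested. Skeletal muscle markers (10 genes) summed to 4.84, 12.7 and 8.44 CPM in I/R 1 to 3 and to 561, 14.5 and 280 CPM in sham 1 to 3, so 2 sham libraries carried muscle RNA. In a bulk sample, fewer cells of a type and less RNA per cell cannot be told apart.

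The minor tubulin isotypes Tuba1c and Tubb6 were higher in I/R ganglia by a little over 2-fold, and no other of the 75 tested genes passed edgeR's quasi-likelihood test at an adjusted p under 0.05. None passed it as lower, nor did any with DESeq2 or limma-voom. Over all 16346 tested genes, 1.15% were called, 0.722% as higher and 0.428% as lower, against 2.67% and 0% of the 75. The median log2 fold change was 0.04 for the 75 genes and 0.00 for all tested genes.

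Tuba1c encodes an alpha tubulin isotype that many cell types make. It had 35.3, 27.9 and 32.0 CPM in I/R 1 to 3, against 13.2, 14.5 and 12.8 CPM in sham 1 to 3. The groups did not overlap, and the lowest I/R library stood well above the highest sham library. The log2 fold change was 1.24 ± 0.12 (SE, n = 3 per group, edgeR adjusted p = 0.00106), with a 95% interval of 0.97 to 1.51.

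Tubb6 encodes a beta tubulin isotype found in many cell types. It had 47.0, 41.1 and 37.4 CPM in I/R 1 to 3, against 20.1, 19.2 and 15.6 CPM in sham 1 to 3. All I/R libraries again lay above all sham libraries. The log2 fold change was 1.19 ± 0.13 (edgeR adjusted p = 0.00173), with a 95% interval of 0.90 to 1.49.

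Both isotypes kept their call whichever library was left out, with log2 fold changes of 1.16 to 1.31 for Tuba1c and 1.09 to 1.27 for Tubb6. When the fit took muscle level as a covariate, the values were 1.06 for Tuba1c and 1.12 for Tubb6 (edgeR adjusted p = 0.161 and 0.185), and neither was called. The SE was 0.21 and 0.24 in that fit, against 0.12 and 0.13 in the main fit. Muscle level was high in sham 1 and 3 only, so the covariate and the group can be told apart only in part. Against sham 2 alone the values were 1.11 for Tuba1c and 1.10 for Tubb6. That fit has an arm of 1 library, which is assumed to vary like the I/R libraries, so its calls say nothing about stability. In sham 2, where muscle markers were nearly as low as in I/R, Tuba1c stood at 14.5 CPM and Tubb6 at 19.2 CPM. Macrophage markers (5 genes, 0 called) summed to 29.3, 32.3 and 34.7 CPM in I/R 1 to 3 and to 28.5, 26.8 and 27.4 CPM in sham 1 to 3. Of the 5, 2 were all above in I/R, beside 9.23% of all tested genes. Fold changes were above 0 for 4 and below 0 for 1, Aif1, with a log2 fold change of -0.32. Fibroblast and meningeal markers (8 genes, 7 called lower) summed to 548, 666 and 559 CPM in I/R 1 to 3 and to 996, 1205 and 1092 CPM in sham 1 to 3. Red cell and platelet markers (8 genes, 7 tested, 5 called lower) summed to 57.8 to 93.5 CPM in I/R and 187 to 278 CPM in sham. The 5 called were the globin genes and Alas2, all of red cells. The platelet genes Pf4 and Itga2b had log2 fold changes of -0.43 and -0.03 with overlap, and Ppbp was not tested. Schwann cell markers (5 genes, 0 called) summed to 5604, 6313 and 5639 CPM in I/R 1 to 3 and to 6880, 6690 and 6624 CPM in sham 1 to 3, without overlap. Of 5 satellite glia markers 1, Fabp7, was called lower. Among the uncalled ones, Glul and Cdh19 had log2 fold changes of 0.32 and 0.35, and Apoe and Kcnj10 of -0.21 and -0.25. The satellite glia sums of 2169 to 3101 CPM in I/R and 2793 to 3118 CPM in sham overlapped. The part of these cell types in the values of Tuba1c and Tubb6 was not tested.

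**Figure D1:**
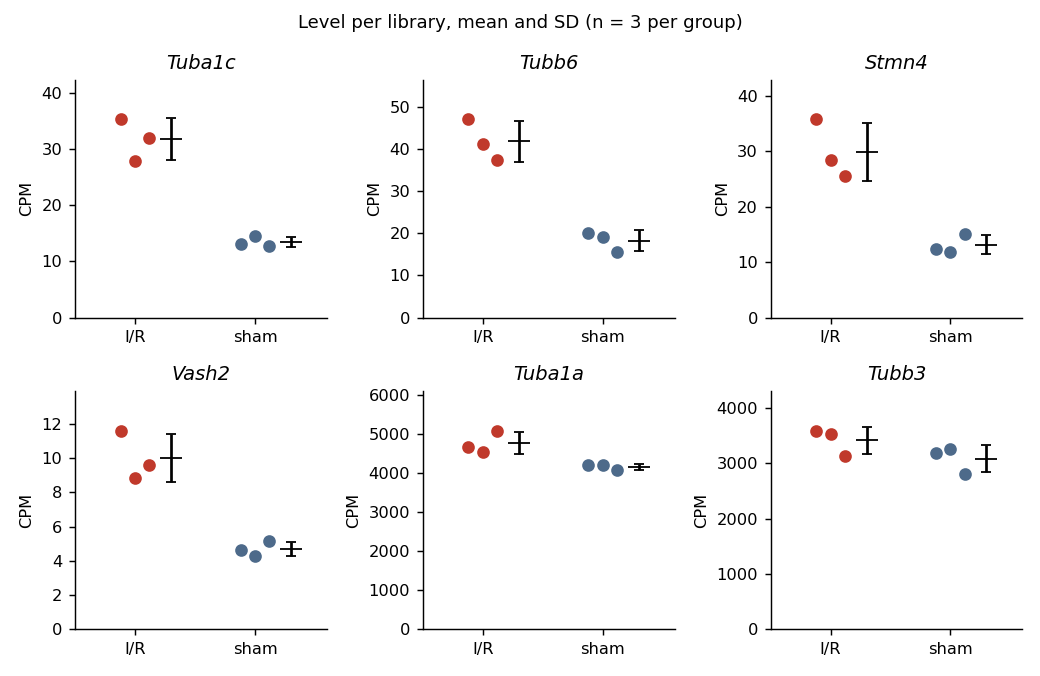
Level of 6 genes in CPM (vertical axes, from 0), one point per library, with the mean and SD of each group (n = 3) beside the points. Tuba1c, Tubb6, Stmn4 and Vash2 lay above every sham library in all 3 I/R libraries; the abundant tubulins Tuba1a and Tubb3 differed far less, and Tubb3 overlapped.

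Atf3, a transcription factor that axon injury induces in sensory neurons, and Sprr1a, another such injury gene, set the scale of these changes. Their fold changes were 13.8 and 176, while those of Tuba1c and Tubb6 were 2.36 and 2.29. Sprr1a had only 0.589, 0.350 and 0.463 CPM in sham 1 to 3, so the size of its ratio rests on a low sham level.

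The sequence before the Tuba1c start is shown because it is the 1 called tubulin gene with an entry in the promoter table used, from RefSeq on build GRCm38.p6, which is not the build of the counts. Vash2, a called gene of the microtubule pathway described further on, is given for comparison. The 250 bases upstream of Tuba1c lie at chr15:99029641-99029890 on the plus strand and those of Vash2 at chr1:190979297-190979546 on the minus strand. Capitals mark a match to the GC box GGGCGG on either strand.
Tuba1c: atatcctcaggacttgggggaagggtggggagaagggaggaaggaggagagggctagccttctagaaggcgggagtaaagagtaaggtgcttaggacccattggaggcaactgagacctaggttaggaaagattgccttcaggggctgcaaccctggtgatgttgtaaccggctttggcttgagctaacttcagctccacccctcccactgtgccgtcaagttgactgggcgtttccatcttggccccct
Vash2: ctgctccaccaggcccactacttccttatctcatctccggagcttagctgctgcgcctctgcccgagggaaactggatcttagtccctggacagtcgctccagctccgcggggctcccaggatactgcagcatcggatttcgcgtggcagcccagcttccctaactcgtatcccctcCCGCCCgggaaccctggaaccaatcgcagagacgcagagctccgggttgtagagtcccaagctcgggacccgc
Neither window held the AP-1 letters TGANTCA, the cyclic AMP response element TGACGTCA or the TATA letters TATAAA on either strand, where N is any base. The Vash2 window held 1 GC box on the strand opposite to the gene, so it reads CCGCCC in the sequence shown. The leftmost base of these letters lies 73 bases before the start. The AP-1 letters occurred in the same window of 6.87% of 27025 genes, the cyclic AMP response element in 1.62%, TATAAA in 13% and the GC box in 32.9%. Of the 63 genes of the family with an entry, 0 had the AP-1 letters, 5 (7.94%) the cyclic AMP response element, 5 (7.94%) TATAAA and 38 (60.3%) the GC box. The genes with the cyclic AMP response element letters were Dctn3, Kif17, Kif5c, Klc1 and Tubb2a, with log2 fold changes between -0.20 and 0.15 and none called. These letter matches describe the windows only, and no binding was measured.

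Among alpha tubulins, Tuba1a and Tuba1b carried nearly all of the message. Per length, as TPM (a count divided by gene model length and scaled to the same sum in every library), Tuba1a averaged 6809 ± 723 in I/R and 5887 ± 297 in sham (SD, n = 3 each), and Tuba1b 3114 ± 228 and 2925 ± 119. Tuba1a made up 64.8%, 65.2% and 66.2% of summed alpha tubulin TPM in I/R 1 to 3, against 63.6%, 63.9% and 63.4% in sham 1 to 3. Tuba1c made up 0.396% ± 0.0427 in I/R and 0.187% ± 0.0108 in sham.

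Tuba1a, the main alpha tubulin of growing neurons, had 4678, 4535 and 5090 CPM in I/R 1 to 3, against 4206, 4217 and 4079 CPM in sham 1 to 3. The groups did not overlap, but the log2 fold change of 0.19 ± 0.08 did not pass (edgeR adjusted p = 0.451). Tuba1b differed by 0.08 and Tuba4a, whose product is made without a terminal tyrosine, by 0.06. Tuba8, known from muscle and testis, had 3.46, 2.91 and 2.97 CPM in I/R 1 to 3, against 4.37, 3.15 and 3.96 CPM in sham 1 to 3. Its log2 fold change was -0.30 (95% interval -0.72 to 0.12), and the part of the muscle RNA of sham 1 and 3 in it was not tested. Tuba3a and Tuba3b, testis isotypes, had at most 2 counts in a library.

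Because the Tuba1 genes are close to identical in their coding sequence, the share of reads given to each is uncertain, and the Tuba1c counts were not whole numbers in any library. The log2 fold changes of its copies Tuba1a and Tuba1b were 0.19 and 0.08. The Tubb6 counts lay within 0.1 of a whole number in every library.

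Among beta tubulins, Tubb3, the neuronal isotype used as a marker of neurons, was the most abundant at 4694 ± 177 TPM in I/R and 4210 ± 467 TPM in sham. Tubb2a, Tubb4b and Tubb5 followed, whose group means lay between 1396 and 1778 TPM and overlapped in their spread. Tubb4a and Tubb2b came next, and Tubb6 was far below them. Tubb1, the platelet isotype, had 3 to 5 counts in each library and was not tested.

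Tubb2b, an isotype of developing and growing neurons, had 793, 714 and 608 CPM in I/R 1 to 3, against 585, 597 and 566 CPM in sham 1 to 3. Every I/R library was higher, with a narrow gap, and the log2 fold change of 0.28 ± 0.11 did not pass (edgeR adjusted p = 0.383). Tubb3 had 3594, 3528 and 3134 CPM in I/R 1 to 3, against 3189, 3259 and 2802 CPM in sham 1 to 3, and the groups overlapped (log2 fold change 0.15, 95% interval -0.07 to 0.36). Tubb5 differed by 0.11 with no overlap, and Tubb2a and Tubb4a by 0.15 and 0.10 with overlap. Tubb4b, a broadly expressed isotype, was the only tested beta tubulin with a fold change below 0, at -0.06.

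The make-up of the beta tubulin pool shifted by small amounts. Tubb6 made up 0.588%, 0.519% and 0.520% of summed beta tubulin TPM in I/R 1 to 3, against 0.276%, 0.260% and 0.238% in sham 1 to 3. Tubb4b made up 13.2%, 12.8% and 13.3% in I/R 1 to 3, against 14.6%, 14.3% and 15.6% in sham 1 to 3, and these groups did not overlap either. The shares of Tubb3, at 41.8% ± 0.673 in I/R and 41.0% ± 0.629 in sham, and of Tubb5 overlapped. Summed beta tubulin stood at 11009, 11647 and 11060 TPM in I/R 1 to 3 and at 10671, 10949 and 9116 TPM in sham 1 to 3. Summed alpha tubulin stood at 9703, 9988 and 11523 TPM in I/R and at 9460, 9545 and 8746 TPM in sham.

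**Figure D2:**
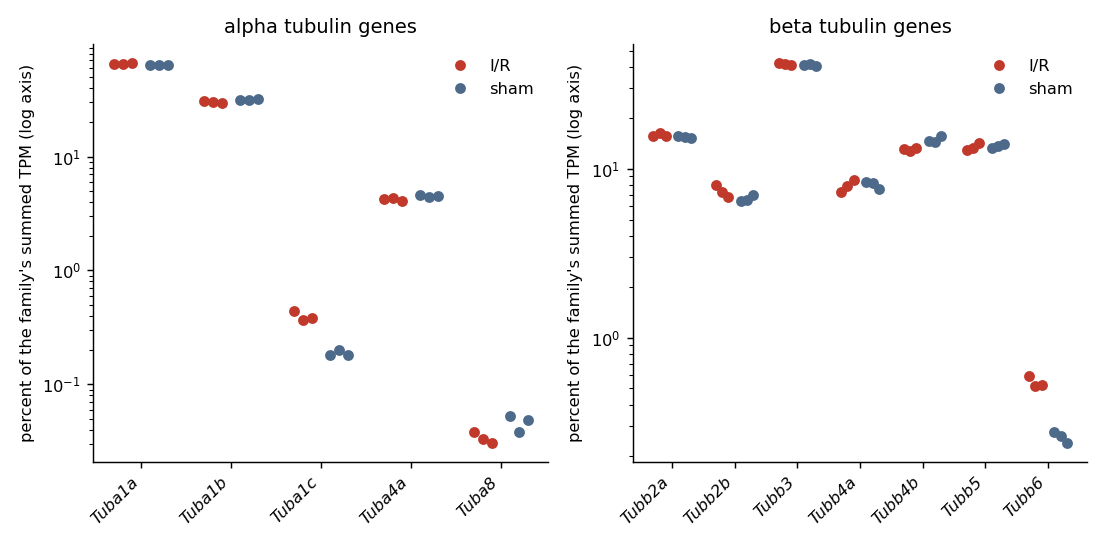
Share of each isotype in the summed TPM of its family (log axis), one point per library, I/R left of sham for each gene; isotypes whose mean sham share was 0.01% or less are left out. Tuba1c and Tubb6 were below 1% in every library and about doubled their share in I/R, while Tubb3 and Tuba1a held the largest shares in both groups.

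Of the 75 tested genes, 9 (12%) had all I/R values above all sham values and 1 (1.33%) all below, against 9.23% and 7.83% of all tested genes. Among the 9 were 3 of 5 tested alpha tubulins, Tuba1a, Tuba1b and Tuba1c, and 3 of 7 tested beta tubulins, Tubb2b, Tubb5 and Tubb6. The others were Kif19b, Kif11 and Dctn4, and the 1 below was Dynlt1c. An unadjusted p under 0.05 was reached by 6 of the 75 as higher and 1 as lower, while 5.7% and 4.8% of all tested genes reached it.

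**Figure D3:**
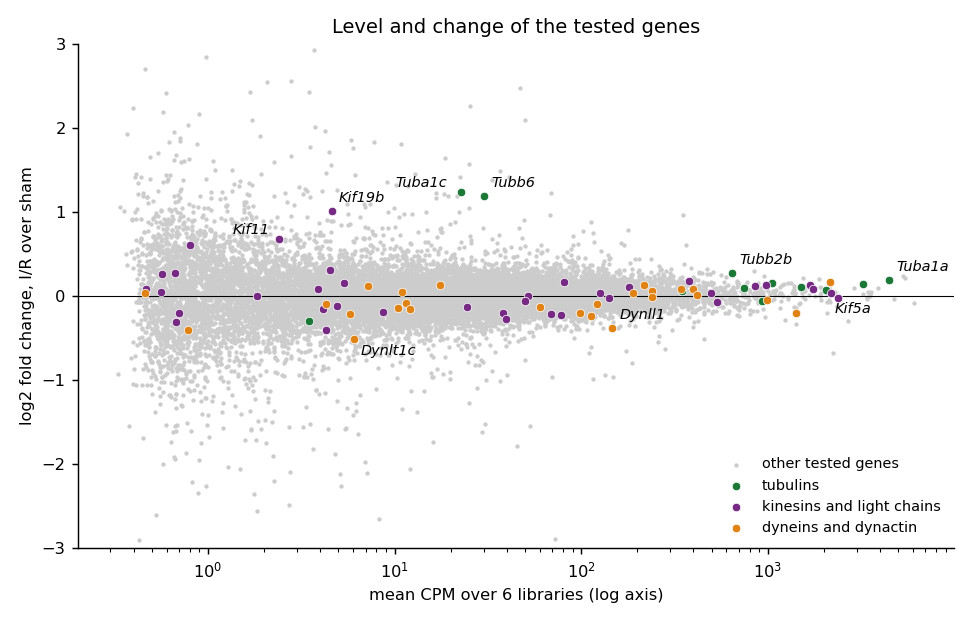
Mean level (horizontal, CPM, log axis) against log2 fold change of I/R over sham (vertical) for all tested genes in grey and the tubulin, kinesin, dynein and dynactin genes in colour; 33 grey genes beyond 3 in either direction are not drawn. Tuba1c and Tubb6 lie above 1, and genes of the family above 100 CPM lie close to 0.

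Kinesin heavy chains that carry axonal cargo had no call, whether by edgeR, by DESeq2 or by limma-voom. Of 13 tested cargo kinesins, 7 had a fold change above 0 and 6 below, and 0 had an unadjusted p under 0.05. The range was -0.21 to 0.18 on the log2 scale.

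Kif5a, the neuronal heavy chain of conventional kinesin that moves neurofilaments and organelles, was the most abundant kinesin per length, at 1427 ± 201 TPM in I/R and 1374 ± 187 TPM in sham. It had 1972, 2380 and 2283 CPM in I/R 1 to 3, against 2250, 2314 and 1891 CPM in sham 1 to 3, with a log2 fold change of 0.04 (95% interval -0.20 to 0.28). The groups overlapped fully. Its relatives Kif5c, at 336 ± 45.7 TPM in I/R and 306 ± 11.8 TPM in sham, and the broadly expressed Kif5b stood lower. Kif5b had 365, 398 and 438 CPM in I/R 1 to 3, against 345, 343 and 369 CPM in sham 1 to 3, and its 0.18 was the highest fold change among cargo kinesins (edgeR adjusted p = 0.551).

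Kif1a, which carries synaptic vesicle precursors and dense-core vesicles, had 2080, 2544 and 2441 CPM in I/R 1 to 3, against 2525, 2688 and 1995 CPM in sham 1 to 3. The lowest library of each group lay far below the others of its group, and the log2 fold change was -0.03 (95% interval -0.31 to 0.25). Kif1b, which carries mitochondria and vesicle precursors, had 0.13 (95% interval -0.07 to 0.33). The subunits of heterotrimeric kinesin, Kif3a, Kif3b and Kif3c, had 0.10, -0.02 and 0.03. Kif1c stood at 63.7 ± 5.94 CPM in I/R and 73.9 ± 6.86 CPM in sham, with -0.21 as the lowest of the cargo kinesins (edgeR adjusted p = 0.546). Kif28 had at most 3 counts in a library and was not tested.

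Kinesin light chains link conventional kinesin to its cargo. Klc1, the main one in neurons, stood at 1126 ± 62.9 TPM in I/R and 1054 ± 138 TPM in sham, and Klc2 at 423 ± 42.0 TPM in I/R and 441 ± 57.8 TPM in sham. Their log2 fold changes of 0.09 and -0.07 did not pass. Klc4, with -0.20, and Klc3, with under 2 CPM in every library, did not pass either.

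Other kinesins shape the microtubule lattice or signal rather than haul cargo. Kif21a, which slows microtubule growth, had 920, 1064 and 1109 CPM in I/R 1 to 3, against 937, 993 and 884 CPM in sham 1 to 3, with overlap and a log2 fold change of 0.14. Kif2a, which takes microtubules apart, had 0.16. Kif26b stood at 72.1 ± 7.98 CPM in I/R and 84.2 ± 9.33 CPM in sham (log2 fold change -0.22, edgeR adjusted p = 0.562). Of the 5 tested genes of this kind, no call was made by the 3 tools, and 0 had an unadjusted p under 0.05.

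Kinesins of the mitotic spindle stood at low levels, and the 8 tested ones averaged 0.563 to 4.52 CPM over the 6 libraries. Kif11, the spindle motor that pushes the poles apart, had 2.67, 2.91 and 3.33 CPM in I/R 1 to 3, against 1.96, 1.5 and 2.11 CPM in sham 1 to 3. All I/R values were higher, and the log2 fold change of 0.68 ± 0.22 did not pass (edgeR adjusted p = 0.249). Of the 8 tested mitotic kinesins, 7 had a fold change above 0 and 1 below, with a median of 0.27. Kif22, which binds chromosomes, had 0.31, and Kif20a, a cytokinesis kinesin, had 0.00. Markers of dividing cells (8 genes, 5 tested) summed to 7.51, 8.52 and 8.49 CPM in I/R 1 to 3 and to 7.27, 8.25 and 6.74 CPM in sham 1 to 3, and their part in these values was not tested. Kif2b had 0 counts in all 6 libraries.

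Among kinesins grouped with cilia, Kif19b was the nearest to a call. It had 4.65, 7.31 and 6.57 CPM in I/R 1 to 3, against 3.34, 3.55 and 2.26 CPM in sham 1 to 3. The groups did not overlap, and the log2 fold change was 1.02 ± 0.23 (edgeR adjusted p = 0.0805). It was called by DESeq2 (adjusted p = 0.0096), by edgeR without the filter on low counts (0.00238), by edgeR without I/R 1 (0.0366) and by edgeR without both I/R 1 and sham 3 (0.0243). In the alternatives that did not call it, the adjusted p ran from 0.0837 to 0.999. Kif19a, which trims the tips of motile cilia, stood at 35.6 ± 4.82 CPM in I/R and 43.2 ± 6.56 CPM in sham (log2 fold change -0.28, edgeR adjusted p = 0.540). Kif7, a regulator of Hedgehog signalling in the primary cilium, had -0.41 (edgeR adjusted p = 0.538). Markers of ciliated cells (7 genes, 5 tested) summed to 21.4 to 26.1 CPM in I/R and 21.7 to 29.1 CPM in sham, with overlap.

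Cytoplasmic dynein, the motor of retrograde transport, had no called subunit in any of the 3 tools on all 6 libraries, and 0 of its 5 large subunits had an unadjusted p under 0.05. Dync1h1, the motor heavy chain, had 2006, 2345 and 2455 CPM in I/R 1 to 3, against 2148, 2252 and 1682 CPM in sham 1 to 3. The groups overlapped, with a log2 fold change of 0.16 (95% interval -0.12 to 0.44). The intermediate chains Dync1i1, at 229 ± 21.4 TPM in I/R and 229 ± 24.3 TPM in sham, and Dync1i2, which bind dynactin, had log2 fold changes of -0.01 and 0.09. The light intermediate chains Dync1li1 and Dync1li2, which bind cargo adaptors, had 0.06 and 0.01.

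The 4 genes of dynein-2, the motor of transport inside cilia, stood at 9.46 to 21.4 CPM and had fold changes between -0.16 and 0.14 on the log2 scale. None passed. In all, 14 of the 89 genes were below the filter: Tuba3a, Tuba3b, Tubb1, Kif12, Kif14, Kif16bos, Kif18b, Kif28, Kif2b, Kif4, Dynlrb2, Dynlt2a1, Dynlt2a3 and Dynlt4. Of these, Tuba3b, Kif16bos, Kif2b and Dynlt4 had no count in any library.

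In the fit to all 6 libraries, dynein light chains mostly had fold changes below 0, and none was called. Of 11 tested light chains, 3 had a fold change above 0 and 8 below, with a median of -0.20. Of all tested genes, 8177 were above 0 and 8169 below. Without sham 3, Dynll2, Dynlrb1 and Dynlt2b moved from below 0 to log2 fold changes of 0.0103, 7e-04 and 0.0375. Dynlt1c, of the Tctex family, had 5.29, 5.47 and 4.24 CPM in I/R 1 to 3, against 6.38, 7.25 and 7.66 CPM in sham 1 to 3, and was the only tested gene of the family with all I/R values below all sham values. Its log2 fold change was -0.51 ± 0.16 (edgeR adjusted p = 0.241), and reads of its near-identical copies Dynlt1a, Dynlt1b and Dynlt1f, with -0.10, 0.12 and -0.14, cannot be told apart with certainty.

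Dynll1 and Dynll2 encode LC8, a small chain of dynein that also binds many other proteins. Dynll1 had 162, 116 and 107 CPM in I/R 1 to 3, against 145, 145 and 209 CPM in sham 1 to 3 (log2 fold change -0.38 ± 0.18, edgeR adjusted p = 0.525). Dynll2, the most abundant light chain per length, had 1833, 1197 and 910 CPM in I/R 1 to 3, against 1358, 1249 and 1918 CPM in sham 1 to 3. I/R 1 and sham 3 were the high libraries for both genes, and the groups overlapped. Without these 2 libraries, an alternative chosen after seeing the data with 2 mice per group, Dynll1 was called lower (log2 fold change -0.38, edgeR adjusted p = 0.0366). Over the other alternatives its adjusted p ran from 0.189 to 0.999.

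Dynactin ties dynein to its cargo and keeps it moving. Dctn1, its large p150 subunit, had 930, 1084 and 907 CPM in I/R 1 to 3, against 1072, 1126 and 812 CPM in sham 1 to 3, with overlap and a log2 fold change of -0.04. Dctn2, the dynamitin subunit, had 0.08. Dctn4, of the pointed-end complex, had 218, 225 and 241 CPM in I/R 1 to 3, against 206, 208 and 210 CPM in sham 1 to 3, without overlap and with a log2 fold change of 0.13 (edgeR adjusted p = 0.654). Dctn3, Dctn5 and Dctn6 had -0.20, -0.09 and -0.13. The 3 tools called none of the 6 subunits, and 0 had an unadjusted p under 0.05.

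For the abundant genes the intervals were narrow. Of 34 genes of the family with a mean of at least 100 CPM, 0 were called by any of the 3 tools. An unadjusted p under 0.05 was reached by 2 as higher, Tubb2b and Tuba1a, and 0 as lower, beside 5.7% and 4.8% of all tested genes. Log2 fold changes of the 34 ran from -0.38 for Dynll1 to 0.28 for Tubb2b, 24 above 0 and 10 below. Of all tested genes, 8177 were above 0 and 8169 below. The 95% interval of 31 of the 34 lay inside a 1.5-fold change in either direction, and that of 18 inside a 1.25-fold change. Those that reached beyond 1.5-fold were Dynll1, Dynll2 and Dynlrb1, a light chain of the roadblock family.

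**Figure D4:**
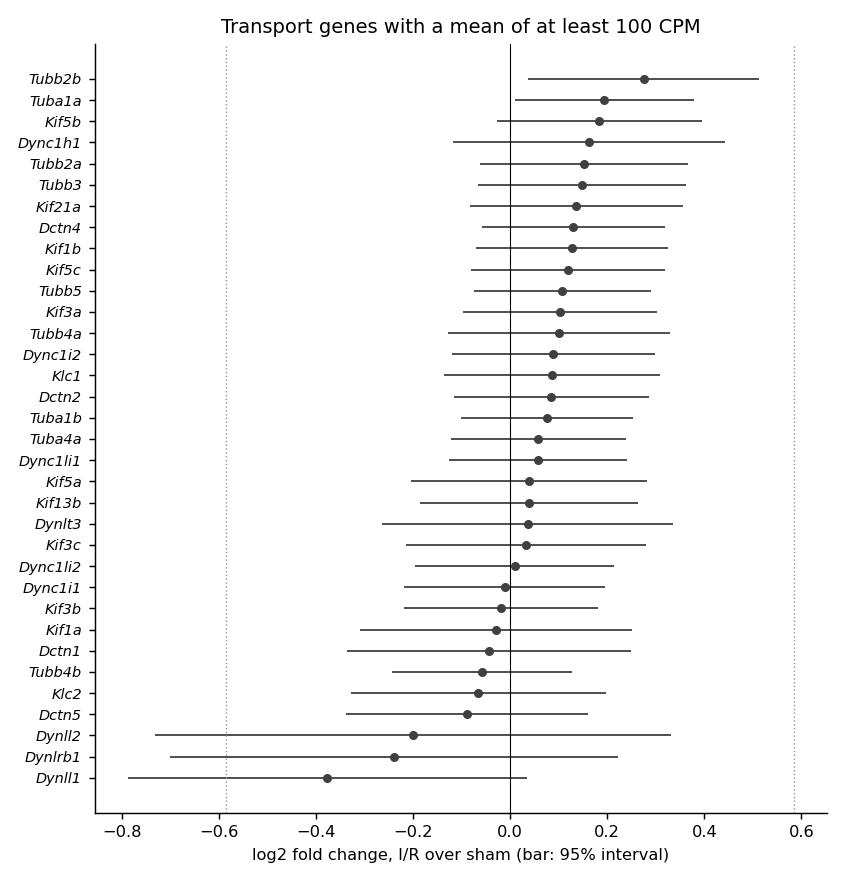
Log2 fold change of I/R over sham (points) and its 95% interval (bars) from edgeR for the 34 genes of the family with a mean of at least 100 CPM, ordered by fold change. Dotted lines mark 1.5-fold, and the intervals of Dynll2, Dynlrb1 and Dynll1 cross the lower one.

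Libraries of 1 group differed along the length of the gene model. Dynll2 over Dync1h1, as a ratio of CPM, was 0.914, 0.511 and 0.371 in I/R 1 to 3, and 0.632, 0.555 and 1.14 in sham 1 to 3. I/R 1 and sham 3 were the high libraries of their groups for Dynll1, Dynll2, Dynlrb1, Dctn3, Dctn5 and Dctn6 and the low ones for Kif5a, Kif1a and Dync1h1. Family genes of at least 1 CPM and under 1500 bases (7 genes) had median deviations from their mean log2 level of 0.20, -0.14 and -0.20 in I/R 1 to 3, and -0.01, -0.09 and 0.33 in sham 1 to 3. Those over 4000 bases (22 genes) had -0.08, 0.08 and 0.07 in I/R, and 0.05, 0.06 and -0.15 in sham.

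Genes at large followed length too. The 2417 tested genes of at least 1 CPM under 1500 bases had medians of 0.18, -0.07 and -0.22 in I/R 1 to 3, and -0.01, -0.08 and 0.19 in sham 1 to 3. Across 66 genes of the family, the Spearman correlation of length with the deviation of I/R 1 from I/R 2 and 3 was -0.698, and with that of sham 3 from sham 1 and 2 it was -0.533. Across all 14745 such genes these were -0.514 and -0.289. These are descriptions across genes that share libraries. The part of this length pattern in the fold changes of the light chains was not tested, and Tuba1c and Tubb6 had log2 fold changes of 1.12 and 1.00 without I/R 1 and sham 3 (edgeR adjusted p = 0.00146 and 0.00111).

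**Figure D5:**
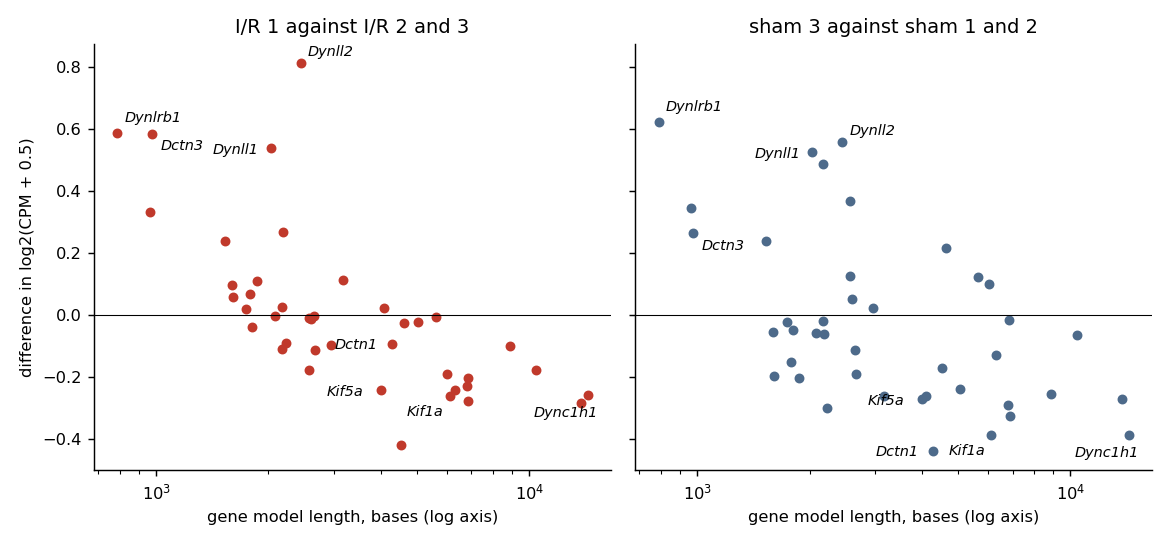
Difference in log2(CPM + 0.5) of I/R 1 from the mean of I/R 2 and 3 (left) and of sham 3 from the mean of sham 1 and 2 (right) against gene model length (log axis), one point per family gene with a mean of at least 50 CPM. In both panels Dynlrb1, Dynll1 and Dynll2 lie high and the long Kif1a and Dync1h1 lie low.

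The other genes that build, bind and modify microtubules were read from a list of 130 genes, of which 124 were tested. Stmn4 and Vash2 were higher in I/R (1.61% of the 124, against 0.722% of all tested genes), and none was lower (against 0.428%). The median log2 fold change was 0.03, beside 0.00 for all tested genes.

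Stmn4 encodes a neuronal stathmin, a protein that binds free tubulin dimers. It had 35.8, 28.5 and 25.6 CPM in I/R 1 to 3, against 12.4, 11.9 and 15.1 CPM in sham 1 to 3, and the groups were well apart. Its log2 fold change was 1.19 ± 0.15 (edgeR adjusted p = 0.00425), and 1.05 to 1.30 when each library was left out. With the replicate number as a block it was 1.19 (edgeR adjusted p = 0.0762). The more abundant Stmn2, a stathmin of growth cones, had 0.16, and Stmn1 and Stmn3 had -0.04 and -0.03.

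Among 26 tested enzymes that modify tubulin tails, 1 was called higher and 0 lower. This was Vash2, which encodes an enzyme that removes the terminal tyrosine of alpha tubulin. It had 11.6, 8.86 and 9.58 CPM in I/R 1 to 3, against 4.62, 4.30 and 5.14 CPM in sham 1 to 3, again without overlap. Its log2 fold change was 1.10 ± 0.15 (edgeR adjusted p = 0.00802). It lost its call without sham 1 (1.08, edgeR adjusted p = 0.0636) and with the replicate number as a block (1.09, edgeR adjusted p = 0.0673). Svbp, the small partner that the enzyme needs, had -0.49 (edgeR adjusted p = 0.463), Vash1 had 0.02, and Ttl, the ligase that puts the tyrosine back, had 0.03. Neither Stmn4 nor Vash2 was called when muscle level was a covariate (1.25 ± 0.28 and 1.13 ± 0.29, edgeR adjusted p = 0.214 and 0.365). The SE in that fit was larger than in the main fit. Against sham 2 alone, an arm of 1 library, their log2 fold changes were 1.32 and 1.20.

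None of the 16 tested structural microtubule-associated proteins was called in any of the 3 tools; an unadjusted p under 0.05 was reached by 4 as higher and 1 as lower, beside 5.7% and 4.8% of all tested genes. Map2, which marks dendrites and cell bodies, had 142, 142 and 161 CPM in I/R 1 to 3, against 124, 119 and 121 CPM in sham 1 to 3, a log2 fold change of 0.28 (edgeR adjusted p = 0.253). Tppp, a tubulin-binding protein of oligodendrocytes and other cells, had -0.38 (edgeR adjusted p = 0.236). Oligodendrocyte and spinal cord markers (7 genes, 4 tested) summed to 41.5, 49.8 and 44.6 CPM in I/R 1 to 3 and to 90.5, 53.2 and 69.9 CPM in sham 1 to 3. Most of the I/R sums came from Mag, with 30.6, 35.5 and 31.3 CPM in I/R 1 to 3 and 46.6, 43.0 and 40.0 CPM in sham 1 to 3. Mog, Olig2 and Opalin had at most 0.049 CPM in I/R and 0 in sham 2. In sham 1 and 3 these genes had 0.206 to 1.57 CPM. Gfap, Mobp and Aqp4 had counts in every library. The part of these markers in the Tppp value was not tested. Tau, encoded by Mapt, stood at 552 ± 16.1 CPM in I/R and 633 ± 45.5 CPM in sham, without overlap (log2 fold change -0.20, edgeR adjusted p = 0.479). Mapt was chosen after its values were seen.

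Of 31 tested transport adaptors and regulators, 0 were called in any of the 3 tools, while 3 reached an unadjusted p under 0.05 as higher and 1 as lower, beside the same 5.7% and 4.8%. Arl8a, which links lysosomes to kinesin, had 272, 273 and 303 CPM in I/R 1 to 3, against 241, 241 and 225 CPM in sham 1 to 3, a log2 fold change of 0.26 (edgeR adjusted p = 0.288). Ndel1, a dynein regulator, had 160, 157 and 158 CPM in I/R, against 141, 133 and 128 CPM in sham, and 0.24 (edgeR adjusted p = 0.317). Neither group pair overlapped, and neither gene passed.

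Among the remaining lists, 10 plus-end and lattice genes, 9 severing genes, 14 tubulin folding genes and 9 genes of other tubulins and their ring complex had no call in any of the 3 tools. Katnal2, a katanin relative, had -0.75 at 1.07 ± 0.222 CPM in I/R and 1.80 ± 0.362 CPM in sham (edgeR adjusted p = 0.346) and was the 1 gene of these lists with an unadjusted p under 0.05. Spast, the severing enzyme spastin, had 0.15, Camsap2 and Clip1 had 0.19 and 0.13, Tbcd and Tbce, cofactors of tubulin folding, had 0.16 and -0.14, and Tubgcp2 and Tubgcp4, of the gamma-tubulin ring, had 0.14 and -0.17.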

How the data were processed

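RNA from 6 mouse ganglion samples was sequenced, 3 I/R and 3 sham, with a stranded Illumina mRNA kit per the labels' protocols. Tools and build named in the submitters' processing notes were fastp, HISAT2, StringTie and GRCm39, with no roles. The authors deposited expected counts per Ensembl gene, unscaled, of which 10.7% to 11.5% per library were not whole. The counter, how it handled strand and the release of its gene models were not stated. The deposited gene length column gave TPM; the authors' group means were not used. The 525 rows without a gene name were kept as genes.

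Counts were rounded and tested over all genes with edgeR 4.0.16 (R 4.3.3): TMM, filterByExpr, quasi-likelihood test, Benjamini-Hochberg adjustment, called under 0.05. SE is the fold change over the square root of F. CPM uses TMM-scaled library sizes; 3 counts, the limit that a count of 0 allows, equal 0.137 to 0.154 CPM and cover counting error only. The test was tested on simulated data. No library pair of a group agreed within sampling noise (chi-square per degree of freedom 4.11 to 30.5). Named genes: every called gene, every family gene of at least 100 CPM, the 8 largest and 8 smallest fold changes at 1 CPM or more, and, from partner lists without a call, the 2 of smallest p. Those given beyond this rule were chosen after their values were seen. Genes and lists were chosen with earlier results of these data known. Alternatives were RLE, DESeq2 1.42.0, limma-voom 3.58.1, 2 other filters, a replicate block, each library left out, sham 2 alone, a muscle covariate and, added after seeing the data, no I/R 1 and sham 3.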

Additional observations from a re-analysis of the deposited data

How the results depend on the processing

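Tuba1c and Tubb6 were called in every alternative but 2, the muscle covariate and sham 2 alone, where 0 genes of the family were called higher. Sham 2 alone is an arm of 1 library, and its spread comes from the I/R libraries only, so lost calls there say nothing about stability. With the muscle covariate the log2 fold changes were 1.06 for Tuba1c and 1.12 for Tubb6, with a larger SE than in the main fit. The count called higher was 2 to 3 when each library was left out, with Kif19b as the addition. The count called lower was 0 except without I/R 1 and sham 3, where it was 1. Partner genes called numbered 0 with the replicate block, with the muscle covariate and against sham 2 alone, and 1 to 2 when each library was left out, 1 being the count without sham 1. Over all genes, calls numbered 188 at first, 494 without the filter, 63 with the replicate block, 27 with the muscle covariate, 296 without I/R 1 and sham 3, 32 against sham 2 alone, 312 in DESeq2 and 87 to 181 when each library was left out. Deviations of same-numbered libraries from their group means had correlations of -0.167, 0.232 and -0.181, and those of other pairs ran from -0.32 to 0.393. With 3 libraries per group, these values can neither show nor exclude a pairing by number. The cause of these moves was not tested.

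Of 59 named genes, 17 uncalled ones changed sign somewhere, with values of at most 0.103 in size on the log2 scale. Leaving out each library in turn gave Kif1a -0.15 to 0.0581, Dynll2 -0.52 to 0.0103, Kif3c -0.057 to 0.11, Klc2 -0.15 to 0.0339, Kif3b -0.0624 to 0.0233, Dync1i1 -0.0725 to 0.0257, Dynlt3 -0.0679 to 0.22, Dctn1 -0.18 to 0.0476, Dync1li2 -0.0373 to 0.0847, Dynlrb1 -0.46 to 7e-04, Kif13b -0.0418 to 0.0848, Kif5a -0.0458 to 0.12 and Dynlt2b -0.39 to 0.0375. Against sham 2 alone the values were -0.0136 for Dync1h1, 0.0525 for Dynll2, -0.10 for Kif3c, -0.0162 for Klc1, 0.0297 for Dctn5, -0.0744 for Kif13b, -0.0174 for Tubb4a and -0.0894 for Kif5a. When muscle level was a covariate they were -0.026 for Kif3c, 0.0086 for Dctn5, -0.0201 for Kif13b and -0.0076 for Kif5a. Without I/R 1 and sham 3 they were -0.0025 for Klc1, 0.0261 for Kif3b and -0.0087 for Kif13b. Under the stricter filter (CPM of 1 or more in 3 libraries) it was -0.0077 for Dync1li2.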

Other observations

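Relatives that the name rule leaves out were measured too. Kifap3, the cargo-binding partner of heterotrimeric kinesin, had 300, 318 and 349 CPM in I/R 1 to 3, against 289, 275 and 294 CPM in sham 1 to 3, without overlap (fold change 1.13, edgeR adjusted p = 0.560). Kifbp, a kinesin-binding protein, stood at 97.1 ± 9.46 CPM in I/R and 93.4 ± 2.55 CPM in sham (SD, n = 3 each). Kifc2 and Kifc3, minus-end kinesins, stood at 63.4 ± 4.58 and 33.7 ± 3.65 CPM in I/R and at 64.6 ± 11.2 and 36.1 ± 7.71 CPM in sham. Cenpe and Kifc1, kinesins of dividing cells, were near 1 and 2 CPM in both groups, with fold changes of 1.01 and 0.971. None of these was called by edgeR. They were chosen after the values of the main genes were seen.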
